A study of Homo sapiens with 12 samples.

Results

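The subject here is a single contrast laid over all 12 of the 12 RNA-seq libraries of the series: the effect of FOSL1 knockdown in PANC-1 cells minus the effect of HDAC2 knockdown in H1299 cells, each measured against scramble libraries of its own line. The 12 libraries fall into 4 groups of 3, named PANC-1-FOSL1-sh2, PANC-1-scramble, H1299-HDAC2-sh1 and H1299-scramble in the table and marked as biological replicates. PANC-1 is an established line from a pancreatic adenocarcinoma and H1299 an established line from a lung carcinoma, and both grew in DMEM with FBS. The study's methods describe lentiviral delivery and puromycin selection for FOSL1 shRNAs, and how the scramble and HDAC2 groups were handled is not given in the sources used here. Each target was knocked down by 1 shRNA in 1 line, so the target, the hairpin and the cell line change together and cannot be told apart in any difference between both effects. The groups labelled wild type carry the scramble hairpin.

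FOSL1 encodes FRA1, a subunit of AP-1, a transcription factor dimer of FOS, JUN and related proteins that binds DNA downstream of growth factor and stress signals. HDAC2 encodes a class I histone deacetylase that works in co-repressor complexes such as NuRD, SIN3 and CoREST and removes acetyl groups from histone tails. In carcinoma cells AP-1 is known for genes of invasion and of the matrix, and class I deacetylases for gene silencing and for the cell cycle.

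The sequences below are the hairpin targets that the study lists, or promoter stretches of genes that moved in both lines and hold a motif searched for here. The hairpin targets come from the oligonucleotide list of the study, which gives 1 FOSL1 hairpin and 1 scramble. The list calls the first FOSL1-shRNA, and that it is the sh2 of the library names is assumed. The FOSL1 target of 19 bases was found in GENCODE release 44 transcripts of 2 genes (FOSL1, and FOSL1P1, a pseudogene of it), while the scramble target was in transcripts of 0 genes. The HDAC2 hairpin is not shown.

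FOSL1 shRNA target: gagctgcagtggatggtac

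Scramble shRNA target: cgtacgcggaatacttcga

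Promoter stretches are RefSeq sequence of build GRCh38.p14 upstream of an annotated start, read along the gene's own strand, with the motif in capitals. A set of 5 motifs was searched on both strands in windows of 250 bases before and 50 bases after each start: the AP-1 element TGACTCA, its sister CRE as TGACGTCA, the interferon-stimulated response element (ISRE) as GAAANNGAAA, the heat shock element (HSE) as GAANNTTCNNGAA or TTCNNGAANNTTC, and the CEBP-ATF response element (CARE) as TGATGNAA. IFIT3 (chr10:89332395-89332527, plus strand) and JDP2 (chr14:75427966-75428021, plus strand) rose in PANC-1 and fell in H1299, and are shown with an ISRE and a CARE. HSP90AA1 (chr14:102087080-102087172, minus strand) fell in PANC-1 and rose in H1299, and is shown with an HSE. NEDD4 (chr15:55917132-55917182, minus strand) rose in both lines and DMKN (chr19:35501934-35502020, minus strand) fell in both, and each is shown with an AP-1 element. The NEDD4 stretch belongs to a start inside the gene. JDP2 is not on the ATF4 response list used below, and NEDD4 and DMKN are not on the list of AP-1 linked genes.

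IFIT3 with ISRE: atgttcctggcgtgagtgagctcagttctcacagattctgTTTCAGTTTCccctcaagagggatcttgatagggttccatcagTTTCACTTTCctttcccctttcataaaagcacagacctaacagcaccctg

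JDP2 with CARE: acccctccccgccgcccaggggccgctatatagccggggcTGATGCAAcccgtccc

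HSP90AA1 with HSE: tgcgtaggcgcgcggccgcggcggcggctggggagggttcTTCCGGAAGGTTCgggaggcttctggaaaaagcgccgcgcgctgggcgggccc

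NEDD4 with AP-1: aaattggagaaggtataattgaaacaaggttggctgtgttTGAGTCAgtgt

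DMKN with AP-1: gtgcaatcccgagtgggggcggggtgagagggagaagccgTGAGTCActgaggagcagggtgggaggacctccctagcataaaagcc

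Libraries held 16065723 to 19173421 counts. The share of counts from mitochondrially encoded genes was 12.6 to 13.3% in PANC-1 FOSL1 knockdown and 6.99 to 7.29% in PANC-1 scramble libraries, against 11.3 to 12.5% in H1299 HDAC2 knockdown and 11.8 to 13% in H1299 scramble libraries. In both lines the first scramble library was unlike the other 2, and counts of genes are given with and without it. Duct keratins KRT8, KRT18 and KRT19 were abundant in PANC-1. Of 7 lung markers, NKX2-1 reached at most 2.99 CPM and the surfactant genes were at or near 0 in H1299, so that line is recognised here by its label only. Of 8 leukocyte markers 1 was abundant enough to test and MS4A1 was at 0 in all libraries, and of 5 endothelial markers 2 could be tested. Values below are CPM (counts scaled to library size by TMM), each log2 fold change has its standard error, and adjusted p-values are from edgeR's quasi-likelihood test over 18505 genes.

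Both targets were lower in their own knockdown, FOSL1 by less than HDAC2, and each was measured in the other line too. FOSL1 (chr11:65892049-65900573, minus strand) stood at 219, 217 and 242 CPM in PANC-1 scramble and at 178, 167 and 166 CPM after its knockdown, a log2 fold change of -0.41 ± 0.06 (edgeR adjusted p = 2.4e-06). In H1299 the same gene stood at 483, 428 and 428 CPM in scramble libraries and at 565, 617 and 591 CPM after HDAC2 knockdown, a log2 fold change of 0.41 ± 0.06 (edgeR adjusted p = 1.1e-05). The groups did not overlap in either line, and the difference of both effects was -0.82 ± 0.09 (edgeR adjusted p = 9.7e-09). HDAC2 (chr6:113933028-114011308, minus strand) stood at 171, 178 and 187 CPM in H1299 scramble and at 77.3, 68.5 and 78.4 CPM after knockdown, a log2 fold change of -1.26 ± 0.07 (edgeR adjusted p = 7.5e-14). In PANC-1 it read 190, 227 and 229 CPM in scramble and 231, 227 and 222 CPM in FOSL1 knockdown libraries, which overlapped (edgeR adjusted p = 0.4). Its closest relative HDAC1, which shares its complexes, rose by a log2 fold change of 0.18 ± 0.06 in H1299 (edgeR adjusted p = 0.024), a call lost under 5 of 24 alternatives, with 0.15 without H1299 scramble replicate 3.

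Calls needed an adjusted p below 0.05 together with a log2 fold change larger than 0.5 either way. By this rule FOSL1, at -0.41 in PANC-1 and 0.41 in H1299, was called in neither line. HDAC2, at -1.26, was called in H1299. FOSL1 knockdown raised 1961 genes (10.6% of those tested) and lowered 2568 (13.9%), and HDAC2 knockdown raised 222 (1.2%) and lowered 958 (5.18%). The difference of both effects was positive for 2208 genes (11.9%) and negative for 1909 (10.3%). Without the fold threshold, 4274 (23.1%) and 4292 (23.2%) genes rose and fell in PANC-1, 1419 (7.67%) and 1871 (10.1%) in H1299, and the difference was positive for 3378 (18.3%) and negative for 2872 (15.5%).

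In all, 486 genes were called in both lines. Of these, 317 moved the same way, with 40 higher in both (0.216% of genes tested) and 277 lower in both (1.5%). The other 169 moved in opposite ways, with 114 higher in PANC-1 and lower in H1299 (0.616%) and 55 lower in PANC-1 and higher in H1299 (0.297%). With the adjusted p alone these 4 counts were 426 (2.3%), 613 (3.31%), 482 (2.6%) and 413 (2.23%). Both comparisons use different control libraries. Of the 222 genes higher after HDAC2 knockdown, 18% were higher and 24.8% lower after FOSL1 knockdown, beside 10.6% and 13.9% of all genes. Of the 958 genes lower after HDAC2 knockdown, 28.9% were lower and 11.9% higher after FOSL1 knockdown. Taken from the side of PANC-1, the 277 genes lower in both made up 10.8% of the genes lower there, and the 40 genes higher in both 2.04% of the genes higher there. Across all genes tested, Pearson's r of both log2 fold changes was 0.076, and it was 0.0643 across the 10265 genes that averaged 5 CPM or more in each line. Genes are not independent replicates, and both values describe these libraries.

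Of the 317 genes that moved the same way, 67 also had a difference of effects past an adjusted p of 0.05, so their size differed between lines, and for 250 the difference did not pass. All 169 genes that moved in opposite ways had a difference past that threshold, which opposite calls make likely by construction. Of the 4043 genes called in PANC-1 alone, 68.3% had a difference past the threshold, and of the 694 called in H1299 alone 59.4% did. For the rest, a call in 1 line and not in the other did not amount to a tested difference. With both scramble replicate 1 libraries left out, the 4 counts were 35 higher in both, 268 lower in both, 126 higher in PANC-1 and lower in H1299, and 48 the reverse.

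**Figure D1:**
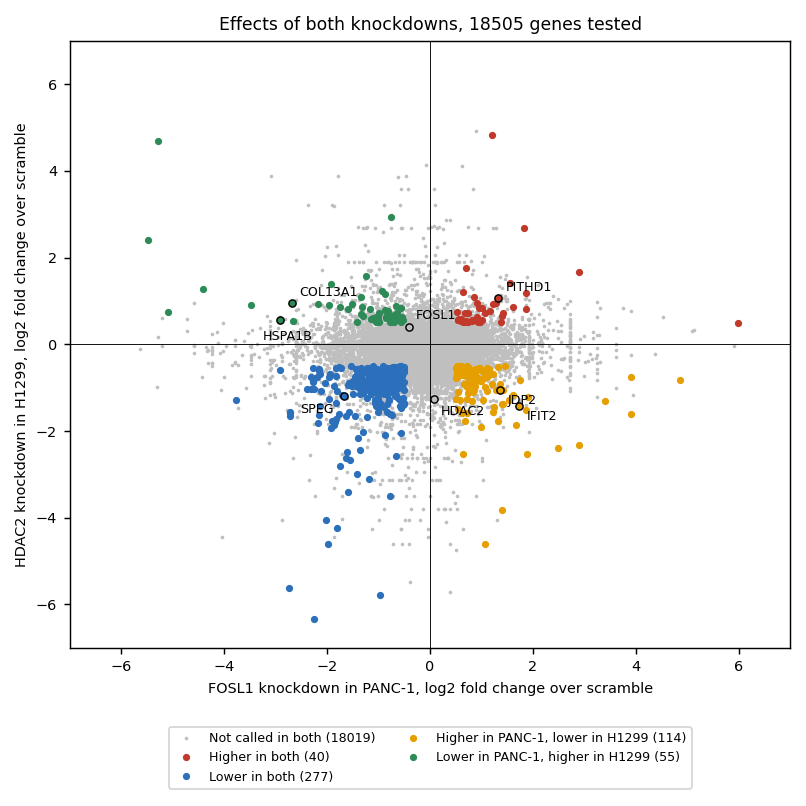
Each point is 1 of 18505 genes, with the log2 fold change of FOSL1 knockdown in PANC-1 on the horizontal axis and that of HDAC2 knockdown in H1299 on the vertical axis, and colours mark the 4 classes of genes called in both. The 277 genes lower in both outnumber the 114, 55 and 40 genes of the other classes, and rings mark FOSL1, HDAC2 and 6 named genes.

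The filter on low counts can pass a gene through 1 line alone. Of the 4 classes, 34 of 40, 245 of 277, 98 of 114 and 49 of 55 genes passed it in each line taken alone, beside 14585 of 18505 genes in all. With a mean of at least 5 CPM in each line, the classes held 23, 89, 45 and 17 genes. The genes named first in each class were taken from these, ranked by the smaller of both changes, where the groups did not overlap in either line.

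Genes that fell in both lines were led by SPEG, KCNK6 and DMKN. SPEG (chr2:219434843-219493629, plus strand), a kinase of the muscle sarcomere and its membranes, read 18.1, 16.8 and 14.6 CPM in PANC-1 scramble and 3.9, 6.35 and 5.25 CPM in FOSL1 knockdown libraries. In H1299 it read 20, 19.5 and 17.2 CPM in scramble and 8, 7.73 and 8.83 CPM in HDAC2 knockdown libraries. Its log2 fold changes were -1.67 ± 0.14 and -1.20 ± 0.13, and the difference of both did not pass the test (edgeR adjusted p = 0.055). KCNK6 (chr19:38319845-38332076, plus strand), a potassium channel of the TWIK family, went from 68.2, 66 and 64.9 CPM to 31.5, 25.2 and 27.7 CPM in PANC-1. In H1299 it started lower, at 16.9, 14 and 13.4 CPM, and went to 8.18, 6.38 and 6.84 CPM. The levels of the lines did not overlap, and the log2 fold changes were -1.24 ± 0.09 and -1.05 ± 0.12 (edgeR adjusted p = 0.38 for the difference).

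DMKN, the secreted epidermal protein dermokine whose AP-1 element is printed above, fell by 1.04 ± 0.11 and 1.04 ± 0.14 on the log2 scale. CXCL16, a membrane-bound chemokine, fell by 1.08 ± 0.14 in PANC-1 and 1.02 ± 0.16 in H1299, from 12.7, 15.9 and 16.2 CPM and from 8.25, 10.2 and 7.79 CPM in the scramble libraries. OSBPL7, an oxysterol-binding protein, fell by 1.00 ± 0.11 on the log2 scale in PANC-1 and by 1.13 ± 0.14 in H1299. Other leading genes of this class were SPTBN4 (a spectrin of the axon initial segment) at -1.52 and -0.97, EFNB3 (an ephrin ligand) at -1.44 and -0.96, and ADGRB1 (an adhesion receptor) at -0.94 and -0.97. The enzymes GDA, a guanine deaminase, and ARSI, an arylsulfatase, fell more in PANC-1, by 1.87 and 1.60 against 0.97 and 0.93 on the log2 scale, and for both the difference passed the test (edgeR adjusted p = 0.0089 and 0.007). Without PANC-1 shFOSL1 replicate 1 the difference of GDA was -0.71 and no longer passed.

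Genes that rose in both lines were fewer, and were led by PITHD1 and NEDD4. PITHD1 (chr1:23778418-23788232, plus strand) read 23.7, 22.9 and 25.8 CPM in PANC-1 scramble and 58.7, 59.5 and 63.2 CPM in FOSL1 knockdown libraries. In H1299 it read 22.8, 19.3 and 17 CPM in scramble and 40.7, 42.6 and 40.1 CPM in HDAC2 knockdown libraries. Starting from levels that met near 23 CPM, it rose by log2 fold changes of 1.32 ± 0.09 and 1.06 ± 0.09 (edgeR adjusted p = 0.11 for the difference). NEDD4 (chr15:55826922-55993660, minus strand), a ubiquitin ligase, rose from 9.94, 14.3 and 16.5 CPM to 25.3, 25.6 and 25.7 CPM in PANC-1 and from 22, 27.2 and 30.7 CPM to 52.8, 49.6 and 51.7 CPM in H1299. In both lines scramble replicate 1 was the lowest NEDD4 value, and the log2 fold changes were 0.91 ± 0.12 and 0.95 ± 0.11.

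POMP, the chaperone that assembles the proteasome core, rose by log2 fold changes of 1.41 ± 0.07 and 0.72 ± 0.06, and APMAP, a membrane glycoprotein, by 1.61 ± 0.07 and 0.86 ± 0.07. For both genes the rise was larger in PANC-1 (edgeR adjusted p = 5.6e-07 and 2.8e-07 for the difference). CCNJ, a member of the cyclin family, rose by 1.86 ± 0.12 and 0.81 ± 0.13 on the log2 scale. PHTF2 rose by 1.01 and 0.83, the long non-coding RNA LINC00641 by 1.17 and 0.77, XXYLT1, a xylosyltransferase that extends sugars on Notch, by 1.40 and 0.66, and the RNA helicase DDX49 by 0.91 and 0.63. HSPA14, a ribosome-associated relative of HSP70, rose by 0.61 and 0.58. Exons of another gene cover 12.7% of its exon bases.

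**Figure D2:**
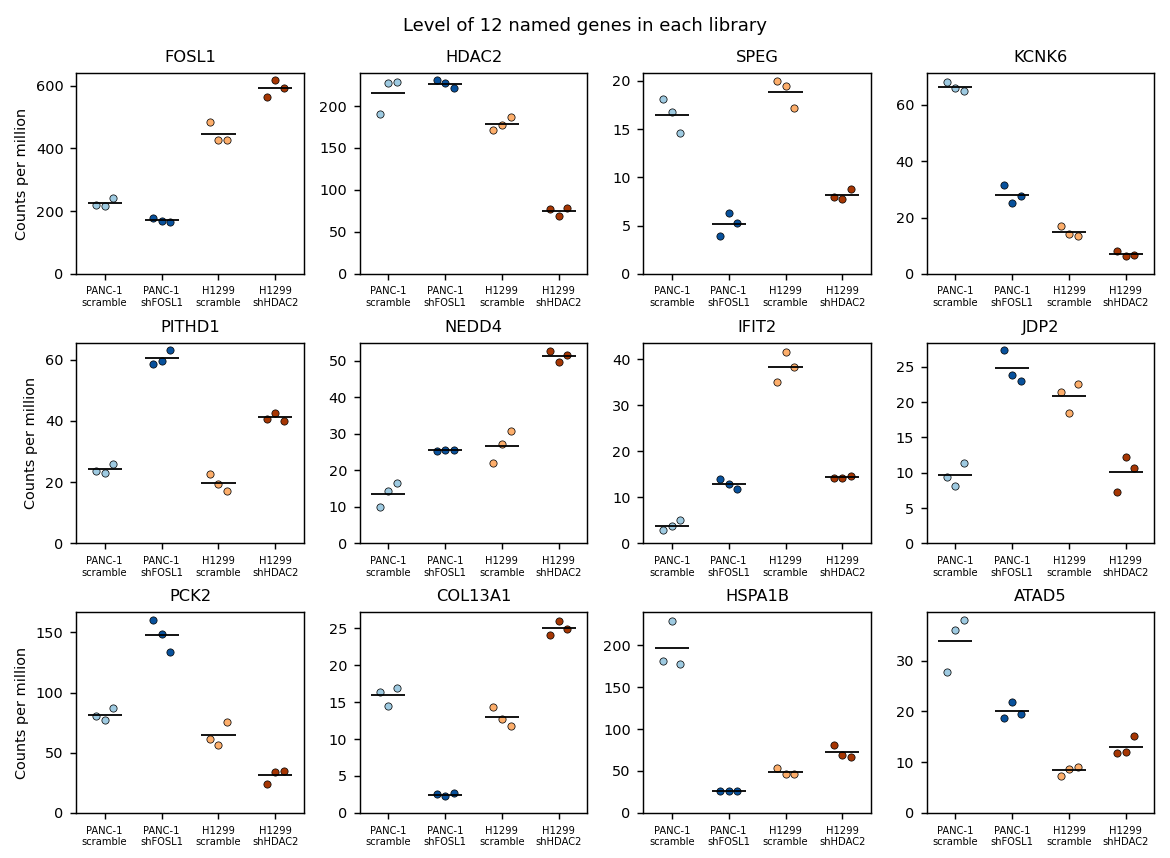
Points are the CPM of 12 named genes in each library and lines are group means, with the 4 groups along the horizontal axis and a vertical axis from 0 in each panel. SPEG and KCNK6 fall and PITHD1 and NEDD4 rise in both lines, IFIT2, JDP2 and PCK2 rise in PANC-1 and fall in H1299, and COL13A1, HSPA1B and ATAD5 do the reverse.

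Genes higher after FOSL1 knockdown and lower after HDAC2 knockdown were led by IFIT2 (chr10:89283694-89309271, plus strand), an interferon-induced protein that binds viral RNA. It read 2.85, 3.68 and 5.01 CPM in PANC-1 scramble and 13.9, 12.8 and 11.7 CPM in FOSL1 knockdown libraries, and 35.1, 41.6 and 38.3 CPM in H1299 scramble and 14.2, 14.1 and 14.7 CPM in HDAC2 knockdown libraries. The lines were thus far apart in the scramble libraries and near each other in the knockdown libraries. Its log2 fold changes were 1.73 ± 0.14 and -1.42 ± 0.11, with a difference of 3.15 ± 0.18 (edgeR adjusted p = 1.4e-14). JDP2 (chr14:75427716-75474111, plus strand), an AP-1 family repressor, read 9.4, 8.1 and 11.4 CPM and then 27.4, 23.9 and 23 CPM in PANC-1. In H1299 it read 21.5, 18.4 and 22.6 CPM and then 7.23, 12.2 and 10.7 CPM. Its log2 fold changes were 1.36 ± 0.14 and -1.05 ± 0.14.

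CDC42EP1, which binds the small GTPase CDC42, moved by nearly equal amounts in opposite ways, 1.10 ± 0.08 and -1.08 ± 0.09. ULBP1, a stress-induced ligand of a natural killer cell receptor, moved by 1.29 ± 0.11 and -1.04 ± 0.16. Of the 10 leading genes of this class 3 belong to the amino acid and stress response: PCK2 (mitochondrial PEP carboxykinase) at 0.85 ± 0.10 and -1.05 ± 0.11, ADM2 (a peptide hormone) at 1.74 ± 0.15 and -0.81 ± 0.15, and TRIB3 (a pseudokinase) at 1.00 ± 0.14 and -0.80 ± 0.14. In all 3 the first HDAC2 knockdown replicate had the lowest value, 24.1 against 34.3 and 34.9 CPM for PCK2, 6.87 against 11.2 and 13.5 CPM for ADM2, and 44.7 against 93.3 and 85.1 CPM for TRIB3. The other 3 were MAMDC4 at 0.87 and -0.96, the zinc finger genes GLIS2 at 0.79 and -0.90 and ZBTB42 at 0.86 and -0.79. Exons of another gene cover 23.5% of those of GLIS2.

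Genes lower after FOSL1 knockdown and higher after HDAC2 knockdown were led by COL13A1 (chr10:69801880-69964275, plus strand), a collagen anchored in the cell membrane. It read 16.4, 14.5 and 16.9 CPM and then 2.52, 2.29 and 2.65 CPM in PANC-1, and 14.4, 12.7 and 11.8 CPM and then 24.1, 26 and 24.9 CPM in H1299. From like levels in the scramble libraries it moved by -2.67 ± 0.14 and 0.95 ± 0.10 on the log2 scale, and the difference was -3.62 ± 0.17 (edgeR adjusted p = 1.9e-16). HSPA1B (chr6:31827738-31830254, plus strand), a stress-inducible HSP70, read 181, 229 and 178 CPM and then 26.2, 26.4 and 25.7 CPM in PANC-1. In H1299 it read 53.8, 46.5 and 46.8 CPM and then 81, 68.8 and 66.5 CPM. The log2 fold changes were -2.91 ± 0.09 and 0.55 ± 0.09. Reads of HSPA1B and its near-identical copy HSPA1A can be split by the counting, and the gene's exon overlap with another gene was 36.6%.

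ATAD5, which unloads the replication clamp PCNA, and CEP152, a centriole duplication protein, both serve dividing cells. ATAD5 moved by -0.77 ± 0.11 and 0.64 ± 0.13, and CEP152 fell by 1.00 ± 0.12 on the log2 scale in PANC-1 and rose by 0.60 ± 0.11 in H1299. The vasodilator peptide ADM moved by -0.86 ± 0.07 and 0.60 ± 0.11, against ADM2 in the class before, and its level differed between lines, with 171, 170 and 187 CPM in PANC-1 scramble and 10.5, 7.78 and 8.14 CPM in H1299 scramble libraries. UBASH3B, a tyrosine phosphatase, moved by -0.86 ± 0.07 and 0.63 ± 0.07, and RNF128, a ubiquitin ligase, by -0.64 ± 0.11 and 0.71 ± 0.11. KCNAB2, a potassium channel subunit, moved by -0.78 and 0.65, and MACROD1, an ADP-ribose hydrolase, by -0.57 and 0.58.

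Among genes in none of the 4 classes and with a mean of at least 5 CPM in each line, the 5 largest differences of effects in each direction belonged to genes whose change was larger in PANC-1 than in H1299. Scarcer genes, with larger fitted differences, are not part of this ranking. CHAC1, which degrades glutathione, rose in PANC-1 by 2.59 ± 0.16 on the log2 scale, and in H1299 read 19.8, 17.1 and 19.1 CPM in scramble and 7.65, 18.7 and 18.2 CPM in HDAC2 knockdown libraries, where 1 value stood apart and the change did not pass (edgeR adjusted p = 0.2). LCMT2, TIGD5 and NCOA5 rose in PANC-1 by 2.30, 2.12 and 2.27 and did not pass in H1299 (edgeR adjusted p = 0.89, 0.45 and 0.17). MTND2P28, a nuclear copy of a mitochondrial gene that can share its reads, rose by 1.83 in PANC-1 and fell by 0.46 in H1299 on the log2 scale. Its H1299 call was lost under 5 of 24 alternatives, and the value was -0.22 without H1299 scramble replicate 2. On the other side, HSPA1A changed by -2.30 and 0.49, EMP1 (an epithelial membrane protein) by -2.18 and 0.47, FN1 (fibronectin) by -2.17 and 0.38 and STC1 (stanniocalcin) by -2.14 and 0.36. These 4 passed the adjusted p in both lines in opposite ways and stayed outside the class because the H1299 change was under 0.5, and the H1299 call of STC1 was lost with DESeq2. FN1 stood at 15.9, 15.4 and 14.2 CPM in PANC-1 and 448, 472 and 435 CPM in H1299 scramble libraries, so a fall in 1 line and a rise in the other started from levels far apart.

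The glucose carrier SLC2A3 had the largest negative difference of these, -3.90 ± 0.17 (edgeR adjusted p = 2.5e-17). It fell from 19.9, 18.1 and 20 CPM to 1.32, 1.47 and 0.621 CPM in PANC-1 and read 148, 147 and 148 CPM and then 126, 129 and 133 CPM in H1299, where the groups did not overlap and the test did not pass (edgeR adjusted p = 0.051). Of the other metabolic genes that the study names, ENO2 (a neuronal enolase) fell in both, by 1.14 and 0.22 on the log2 scale, with a difference of -0.93 ± 0.10, and its H1299 call was lost under 6 of 24 alternatives. PFKFB3 and SLC2A1 fell in PANC-1, by 1.07 and 1.28, and in H1299 they did not pass (edgeR adjusted p = 0.81 and 0.42). The lipid gene FADS2, a fatty acid desaturase, rose in PANC-1 by 1.96 and did not pass in H1299 (edgeR adjusted p = 0.42). SCD, the stearoyl desaturase, passed in both in opposite ways, 0.90 ± 0.05 and -0.30 ± 0.05.

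Gene lists were read by counts at the adjusted p alone, where 23.1% of all genes tested rose and 23.2% fell in PANC-1, and 7.67% rose and 10.1% fell in H1299. At that threshold 2.3% of all genes rose in both and 3.31% fell in both. A further 2.6% rose in PANC-1 and fell in H1299, and 2.23% did the reverse. Lists say where the named genes sit, and no list was tested as a set. Over all genes tested the median log2 fold change was 0 in PANC-1 and -0.01 in H1299, and the median difference was 0.03.

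**Figure D3:**
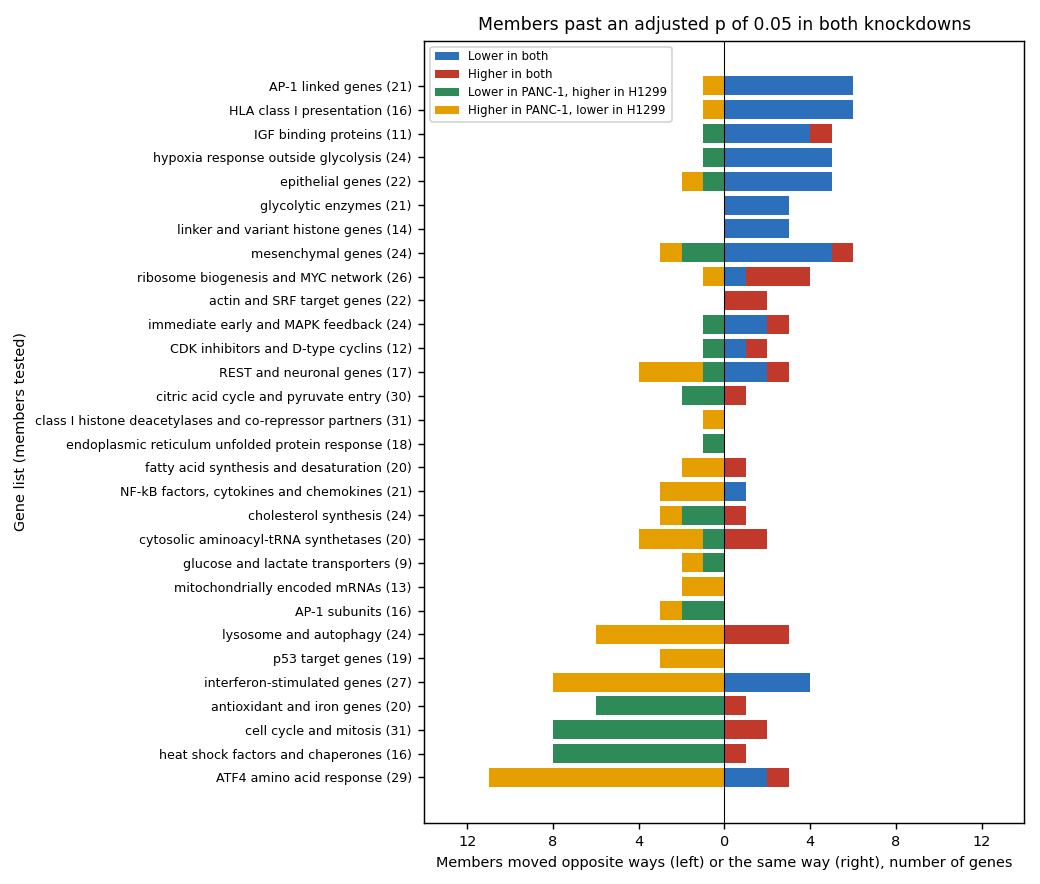
Bars count the members of 30 gene lists that passed an adjusted p of 0.05 in both knockdowns, to the left where they moved in opposite ways and to the right where they moved the same way, with the members tested in brackets. The ATF4 response holds 11 members moved in opposite ways and the heat shock, cell cycle and interferon lists 8 each, whereas the AP-1 linked, HLA class I and mesenchymal lists hold 6 each that moved the same way.

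Heat shock genes were split between the lines. These chaperones fold proteins and are switched on by HSF1 under proteotoxic stress. Of 16 members tested, 9 fell and 2 rose in PANC-1, and 12 rose and 0 fell in H1299, where 1419 (7.67%) of all genes rose. In all, 8 members fell in PANC-1 and rose in H1299, and 1 (DNAJA1) rose in both. The constitutive HSP70 gene HSPA8 moved by -0.99 and 0.50, the HSP70 nucleotide exchange factor HSPH1 by -0.89 and 0.42, and the HSP40 co-chaperone DNAJB1 by -1.17 and 0.32. The HSP90 genes moved less, HSP90AA1 by -0.31 and 0.40 and HSP90AB1 by -0.25 and 0.29, and the mitochondrial chaperonin HSPD1 by -0.21 and 0.38. HSPA6 fell by 4.12 in PANC-1, from a scramble mean of 22.8 ± 11.8 CPM (SD, n = 3), and was near 1 CPM in both H1299 groups, with means of 1.03 and 1.04 CPM. HSF1 itself rose by 0.37 in PANC-1. The list's median was -0.28 in PANC-1 and 0.33 in H1299, and the number of members moved in opposite ways was 7 to 9 over all alternatives and left-out libraries. An HSE lay in the window of 6 of 14 members with a promoter window (42.9%), against 0.5% of 12498 genes tested that have one.

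**Figure D4:**
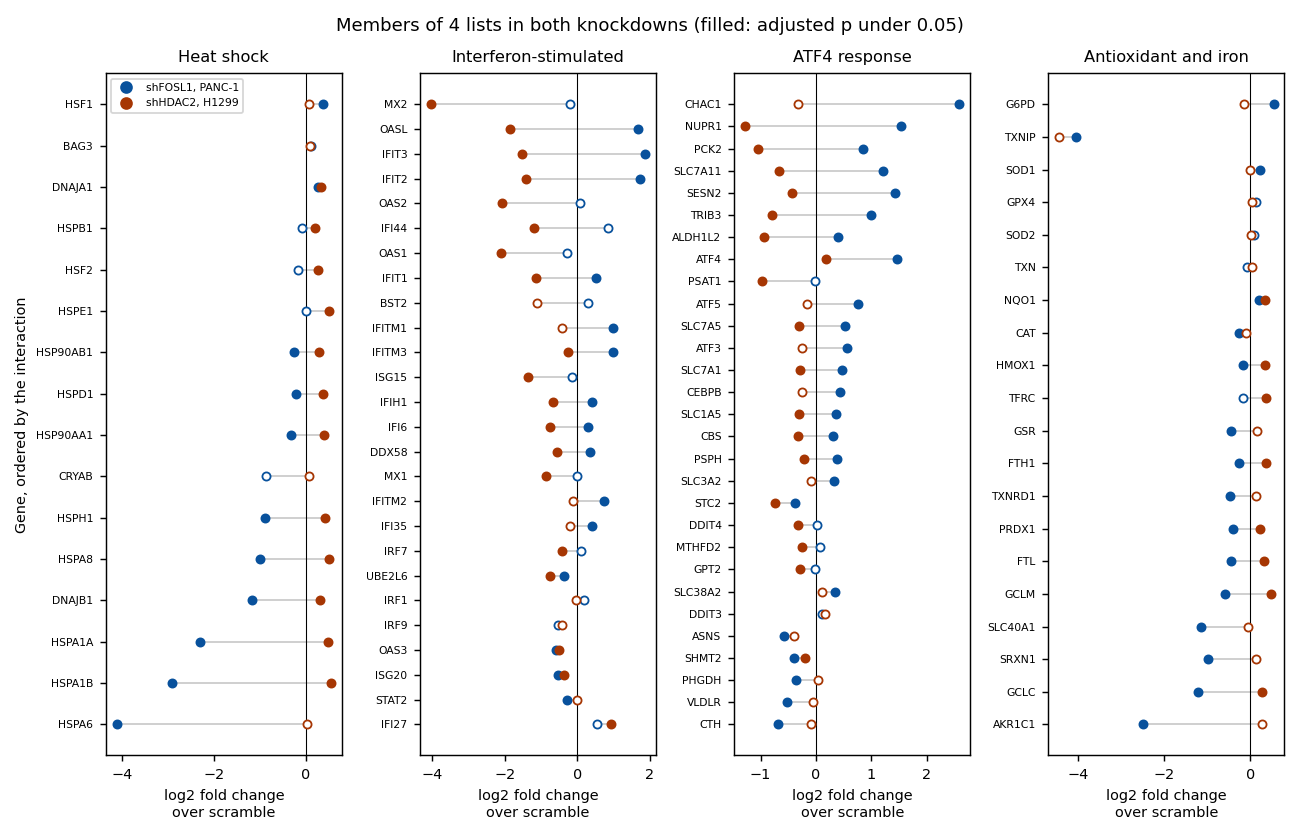
Each row is a gene of 4 lists, ordered by the difference of effects, with its log2 fold change after FOSL1 knockdown in PANC-1 in blue and after HDAC2 knockdown in H1299 in brown, and filled points passed an adjusted p of 0.05. Heat shock and antioxidant genes lie mostly left of 0 in PANC-1 and right of 0 in H1299, and 11 ATF4 response genes do the reverse. The H1299 points of MX2 and TXNIP lie beyond 4 in size and come from scramble means of 0.107 and 0.139 CPM and 0 counts in the HDAC2 knockdown libraries.

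Antioxidant and iron genes went the way of the heat shock genes. Of 20 tested, 13 fell and 3 rose in PANC-1, and 8 rose and 0 fell in H1299, with 6 that moved in opposite ways. Both subunits of the enzyme that starts glutathione synthesis were among them, GCLC at -1.22 and 0.27 and GCLM at -0.60 and 0.48, as were both ferritin chains, FTH1 at -0.25 and 0.37 and FTL at -0.44 and 0.33. HMOX1, which degrades haem, moved by -0.17 and 0.34 and the peroxiredoxin PRDX1 by -0.39 and 0.23. NQO1, a quinone reductase, rose in both, by 0.20 and 0.35, and its PANC-1 call was lost under 5 of 24 alternatives, with 0.11 without PANC-1 scramble replicate 3. The H1299 call of GCLC was lost under 4 of 24 alternatives, 3 of them left-out libraries, at values down to 0.18 without both scramble replicate 1 libraries. The PANC-1 call of HMOX1 was lost with 1 left-out library, at -0.14 without PANC-1 shFOSL1 replicate 3. SRXN1 and TXNRD1, of the thioredoxin system, fell in PANC-1 by 0.99 and 0.47 and did not pass in H1299. The opposite count ranged from 6 to 9 over the alternatives.

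Genes of the cell cycle and mitosis rose in H1299 more often than they fell, 17 against 2 of 31 tested, whereas in PANC-1 6 rose and 12 fell. The 8 genes that moved in opposite ways all fell in PANC-1. They were led by TOP2A (topoisomerase) at -0.55 and 0.37, CDC6 (origin licensing) at -0.63 and 0.29 and CCNA2 (cyclin A) at -0.60 and 0.30, and they held CDK1 at -0.56 and 0.28 and RRM2 at -0.48 and 0.16. MKI67 and MCM7 rose in both, by 0.30 and 0.25 in PANC-1 and 0.26 and 0.17 in H1299, and the count of 2 that moved the same way was 7 without H1299 scramble replicate 1 and 6 without PANC-1 scramble replicate 1. Without PANC-1 shFOSL1 replicate 1 the opposite count was 5, so part of it rests on that library. The H1299 rises of RRM2 and MCM7 were small and lost their call under 10 and 8 of 24 alternatives, most of them left-out libraries, at values down to 0.14 for both.

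With all libraries kept, the ATF4 response had the most members moved in opposite ways of the lists plotted, by count. The heat shock list, at 8 of 16 tested, held a larger part of its members than the 11 of 29 here. ATF4 is a transcription factor translated under amino acid shortage and other stress, and its targets import and make amino acids. Of 29 members tested, 18 rose and 6 fell in PANC-1, and 1 rose and 17 fell in H1299, with 11 higher in PANC-1 and lower in H1299. The cystine carrier SLC7A11 moved by 1.22 and -0.68, the stress sensor SESN2 by 1.42 and -0.43, and the small stress protein NUPR1 by 1.54 and -1.28. The amino acid carriers SLC7A5, SLC7A1 and SLC1A5 moved by 0.53 and -0.30, 0.48 and -0.29, and 0.37 and -0.30, and the folate enzyme ALDH1L2 by 0.39 and -0.94. ATF4 itself had log2 fold changes of 1.47 and 0.18, both past the test, and the H1299 call was lost under 6 of 24 alternatives, 5 of them left-out libraries, with 0.14 without H1299 scramble replicate 2. PSAT1, an enzyme of serine synthesis, fell by 0.98 in H1299 and did not pass in PANC-1. CTH, which makes cysteine, and VLDLR, a lipoprotein receptor on the list, fell by 0.69 and 0.53 in PANC-1 and did not pass in H1299. The opposite count was 5 without H1299 shHDAC2 replicate 1 and 6 without H1299 scramble replicate 3, so the H1299 side depends on these 2 libraries. Without the first of them the heat shock list, at 8, held more. Without H1299 shHDAC2 replicate 1 the H1299 changes of SLC7A11, SESN2, SLC7A5 and SLC1A5 were -0.41, -0.20, -0.15 and -0.23 and no longer passed. In all, these H1299 calls were lost under 3, 3, 2 and 1 of 24 alternatives. The PANC-1 call of ALDH1L2 was lost with 3 left-out libraries, at 0.25 without PANC-1 shFOSL1 replicate 2. A CARE lay in the window of 6 of 23 members (26.1%), against 2.82% of genes tested.

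Interferon-stimulated genes, which carry ISREs read by STAT and IRF factors, fell in H1299 in 19 of 27 tested, and 1 rose. In PANC-1 11 rose and 5 fell. Of these, 8 rose in PANC-1 and fell in H1299, and 4 fell in both. The first group held IFIT3 at 1.87 and -1.52, OASL at 1.67 and -1.85, IFIT1 at 0.50 and -1.14, IFI6 at 0.29 and -0.75, IFITM3 at 0.97 and -0.25, and the RNA sensors DDX58 and IFIH1 at 0.34 and 0.39 against -0.55 and -0.66. OASL and IFIT3 were scarce in PANC-1, with scramble means of 0.443 and 1.34 CPM against 16.1 and 27 CPM in H1299. Those that fell in both included OAS3 by 0.59 and 0.50, the nuclease ISG20 by 0.54 and 0.36 and the ISG15-conjugating enzyme UBE2L6 by 0.36 and 0.77. The same list was thus divided, and its median was 0.29 in PANC-1 and -0.66 in H1299. The H1299 call of ISG20 was lost under 12 of 24 alternatives, 7 of them left-out libraries, at values down to -0.30 without H1299 shHDAC2 replicate 2. The H1299 call of IFITM3 was lost with 3 left-out libraries, at -0.16 without H1299 scramble replicate 1, and the PANC-1 calls of IFI6 and IFIH1 with 2 each, at 0.19 without PANC-1 shFOSL1 replicate 3 and 0.32 without PANC-1 scramble replicate 2. ISG15 fell by 1.36 in H1299 and did not pass in PANC-1. An ISRE lay in the window of 13 of 20 members (65%), against 3.89% of genes tested. The opposite count was 6 to 8 over the alternatives.

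HLA class I molecules show peptides to T cells. Of 16 members of this list tested, 8 fell and 1 rose in PANC-1 and 11 fell and 0 rose in H1299, with 6 lower in both and 1 moved in opposite ways. HLA-B fell by 0.90 and 0.51 on the log2 scale, HLA-C by 0.54 and 0.39, HLA-E by 0.27 and 0.20, HLA-F by 1.23 and 0.43, and the peptide pump TAP1 by 0.30 and 0.27. HLA genes are close copies whose reads can be split between them, and exons of other genes cover 47.3% of those of HLA-B. NLRC5, the transactivator of this family, moved in opposite ways, 0.64 and -0.71. The H1299 call of HLA-F was lost under 5 of 24 alternatives, 4 of them left-out libraries, at values down to -0.30 without H1299 shHDAC2 replicate 1. That of HLA-E was lost with 4 left-out libraries, at values down to -0.13 without H1299 scramble replicate 1. That of TAP1 was lost with 1, at -0.22 without H1299 shHDAC2 replicate 1. The PANC-1 call of NLRC5 was lost with 2 left-out libraries, at values down to 0.36 without PANC-1 scramble replicate 3. B2M, the shared light chain, fell by 0.36 in H1299 and did not pass in PANC-1.

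Of AP-1 linked genes, 13 of 21 fell and 2 rose in PANC-1 and 10 fell and 0 rose in H1299, with 6 lower in both. The urokinase receptor PLAUR fell by 0.92 and 0.32 on the log2 scale, the integrin chain ITGA5 by 0.24 and 0.39, and the collagenase MMP1 by 2.91 and 0.60. SPP1 (osteopontin) fell by 1.46 and 0.94, with a PANC-1 scramble mean of 0.497 CPM, and its PANC-1 call was lost under 3 of 22 alternatives, with -1.18 without PANC-1 scramble replicate 2. ITGB4 moved in opposite ways, 0.61 and -0.60. The cyclin CCND1 and the phosphatase DUSP1 fell in PANC-1 by 0.69 and 1.93 and did not pass in H1299.

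Of 16 AP-1 subunits and relatives tested, FOS moved like FOSL1, by -0.57 and 0.50, and JDP2 against them. JUNB fell and JUND rose in PANC-1, by 0.77 and 0.79, and neither passed in H1299. JUN rose by 0.25 in H1299 and did not pass in PANC-1. An AP-1 element lay in the window of 3 of 12 AP-1 linked genes (25%) against 4.94% of genes tested. Among the 4 classes it lay in 2 of 25 genes higher in both (8%), 15 of 195 lower in both (7.69%), 2 of 73 (2.74%) and 1 of 33 (3.03%) of those that moved in opposite ways. A CRE lay in 3.66% of genes tested, in 0 of 25 genes higher in both and in 3 of 195 lower in both (1.54%). It lay in 1 of 73 genes higher in PANC-1 and lower in H1299 (1.37%) and in 3 of 33 of the reverse (9.09%).

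Of co-repressor genes, which include the partners of HDAC2, 12 of 31 rose and 5 fell in PANC-1, and in H1299 1 rose and 3 fell, HDAC2 included, beside 23.1% and 23.2% of all genes in PANC-1 and 7.67% and 10.1% in H1299. TBL1X, a subunit of nuclear receptor co-repressor complexes, was the single member that passed in both, at 0.37 and -0.24, and its H1299 call was lost under 6 of 24 alternatives, 5 of them left-out libraries. Of 14 linker and variant histone genes tested, 3 fell in both: HIST2H2BE by 1.18 and 0.64, the linker histone H1F0 by 0.27 and 0.88, and HIST1H2AC by 0.22 and 0.82. H1F0 and HIST1H2AC fell further in H1299, with differences of 0.61 and 0.60 (edgeR adjusted p = 1.6e-05 and 0.0002). The PANC-1 call of HIST1H2AC was lost under 4 of 24 alternatives, 3 of them left-out libraries, at values down to -0.17 without PANC-1 shFOSL1 replicate 1.

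The hypoxia response outside glycolysis fell in 17 of 24 genes tested in PANC-1 and in 8 in H1299, with 0 and 1 higher. In both lines 5 fell, among them BNIP3, a mitophagy receptor, by 0.47 and 0.72, LOX, a collagen cross-linking oxidase, by 1.04 and 0.45, BHLHE40 by 0.27 and 0.68 and STC2 by 0.38 and 0.74. The H1299 call of LOX was lost under 6 of 24 alternatives, 5 of them left-out libraries, at values down to -0.41 without H1299 scramble replicate 2. ADM went against them in H1299. NDRG1 fell by 2.35 in PANC-1 from a mean of 152 CPM, and in H1299 was at 3.46 and 3.08 CPM. The count lower in both was 3 without H1299 shHDAC2 replicate 1 and 3 without H1299 scramble replicate 3. Glycolytic enzymes fell in 11 of 21 in PANC-1 and in 4 in H1299, with GPI, ENO2 and PGK1 lower in both, a count of 3 that was 1 without H1299 shHDAC2 replicate 2. The H1299 calls of ENO2 and PGK1 were lost under 6 and 2 of 24 alternatives, at -0.16 without H1299 scramble replicate 2 and -0.17 without H1299 shHDAC2 replicate 3. GPI fell by 0.43 and 0.31, and its difference of effects did not pass (edgeR adjusted p = 0.3). Hexokinase HK2 fell by 1.87 in PANC-1, with means of 52.3 and 50.9 CPM in H1299.

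Genes of epithelial cells included 5 lower in both of 22 tested. KRT8 read means of 1410 and 809 CPM in PANC-1 and 280 and 166 CPM in H1299, log2 fold changes of -0.80 and -0.76 (edgeR adjusted p = 0.79 for the difference), and desmoplakin DSP fell by 0.77 and 0.57. The claudins CLDN1 and CLDN4, of tight junctions, moved in opposite ways and against each other, CLDN1 by 0.92 and -0.49 and CLDN4 by -1.24 and 0.48. Among 24 mesenchymal genes, the collagens COL6A1 and COL6A2 fell in both, by 0.62 and 0.79 in PANC-1 and 0.48 and 0.54 in H1299. TGFBI, a matrix protein induced by TGF-beta, moved by 0.72 and -1.26, and THBS1, a thrombospondin, by -0.67 and 0.88. CDH2 rose in both, by 0.32 and 0.26. The H1299 call of CDH2 was lost with 2 left-out libraries, at values down to 0.20 without H1299 shHDAC2 replicate 3. That of CLDN4 was lost under 3 of 24 alternatives, 2 of them left-out libraries, at values down to 0.35 without H1299 shHDAC2 replicate 1. The PANC-1 call of THBS1 was lost with 1 left-out library, at -0.48 without PANC-1 shFOSL1 replicate 1. Of the fibroblast and smooth muscle markers 5 of 8 could be tested, and their summed level was 236 to 296 CPM in PANC-1 scramble and 88.6 to 97.1 CPM in FOSL1 knockdown libraries, mostly from COL1A1.

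Of 11 genes of insulin-like growth factor signalling tested, 4 fell in both: IGFBP4 by 1.40 and 0.70, IGFBP6 by 1.34 and 1.09, the receptor IGF1R by 0.37 and 0.27, and IGF2 by 0.85 and 0.93, whose exons overlap another gene for 44.4% of their length. The PANC-1 call of IGF2 was lost under 6 of 24 alternatives, 4 of them left-out libraries, at values down to -0.66 without both scramble replicate 1 libraries. The docking protein IRS1 rose in both, by 0.77 and 0.24, and its H1299 call was lost with 3 left-out libraries, at 0.20 without H1299 scramble replicate 3. IGFBP3 moved in opposite ways, by -3.47 and 0.91, from a mean of 37 CPM in PANC-1 and 1.51 CPM in H1299 scramble libraries. Its H1299 call was lost under 2 of 24 alternatives, 1 of them a left-out library, at values down to 0.83 without H1299 shHDAC2 replicate 3. Lysosome genes held 6 higher in PANC-1 and lower in H1299 of 24 tested, among them the protease CTSD at 0.50 and -0.84, with exon overlap of 48%, CTSZ at 0.36 and -0.47 and the autophagosome protein MAP1LC3B at 0.30 and -0.35. Each of 4 left-out libraries of H1299 and 1 of PANC-1 gave an opposite lysosome count of 3. The sialidase NEU1 rose in both, by 0.82 and 0.23, and its H1299 call was lost without H1299 scramble replicate 3, at 0.20.

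All 13 mitochondrially encoded mRNAs rose in PANC-1, with a median of 1.42, and 2 of them (MT-ND4 and MT-ND4L) fell in H1299, by 0.17 and 0.20. Both H1299 calls were lost without H1299 shHDAC2 replicate 1 or 2 or H1299 scramble replicate 2, so that the count moved in opposite ways went from 2 to 0, and with offsets for GC content and the replicate block it was 7. The difference of effects was positive for all 13 and lay between 0.57 for MT-ND5 and 1.78 for MT-ND2. These genes took 6.99 to 7.29% of counts in PANC-1 scramble and 11.8 to 13% in H1299 scramble libraries, so the PANC-1 knockdown libraries stood at the H1299 share. In bulk RNA, less RNA per cell and fewer cells with that RNA cannot be told apart.

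Of cholesterol synthesis genes, 17 of 24 rose and 4 fell in PANC-1, and 6 rose and 1 fell in H1299. ACAT2 rose in both, by 1.00 and 0.22, and the lanosterol synthase gene LSS moved by 1.27 and -0.22. The H1299 call of ACAT2 was lost under 5 of 24 alternatives, 4 of them left-out libraries, at values down to 0.16 with the GC content offset. That of LSS was lost with 3 left-out libraries. The count of 1 moved the same way was 0 to 4 over left-out libraries and at most 7 under other settings. INSIG1, which senses sterols and retains the SREBP complex, moved the other way, by -0.53 and 0.48. Of the 15 metabolic meta-programs of malignant cells that the study defines, each of 30 genes, amino acid metabolism (MMP10) had 7 members moved in opposite ways and 4 the same way, transport (MMP6) 7 and 6, glycosylation (MMP8) 4 and 5, and glycolysis (MMP4) 3 and 5, with all 5 of the last lower in both. The MMP10 opposite count was 3 without H1299 shHDAC2 replicate 1 and 4 without H1299 scramble replicate 3. The MMP4 same-way count was 3 without H1299 shHDAC2 replicate 2 or 3, that of MMP6 was 3 without H1299 scramble replicate 1, and that of MMP8 was 2 to 5 over left-out libraries. For OXPHOS1 (MMP3) it was 1 each way, and the same-way count was 0 to 3 over left-out libraries and 7 without both scramble replicate 1 libraries. For MMP14, where 14 members rose in PANC-1 and 14 had a positive difference, it was 3 each way, and the same-way count was 1 without PANC-1 shFOSL1 replicate 3.

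Effects in H1299 ran with base composition. Ordered by the GC content of the longest transcript, the lowest of 10 equal bins of genes had a median log2 fold change of 0.10 after HDAC2 knockdown and the highest bin -0.13, whereas medians in PANC-1 stayed between -0.03 and 0.04. The median GC content was 43.8% for genes higher in both, 56.7% for genes lower in both, 56.8% for genes higher in PANC-1 and lower in H1299, and 45.7% for the reverse, against 48.3% for all. Both classes that fell in H1299 were thus GC-rich, and both that rose there GC-poor. With offsets that remove each library's trend with GC content, the counts were 35, 265, 89 and 63. The part of base composition in these classes was not tested further.

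**Figure D5:**
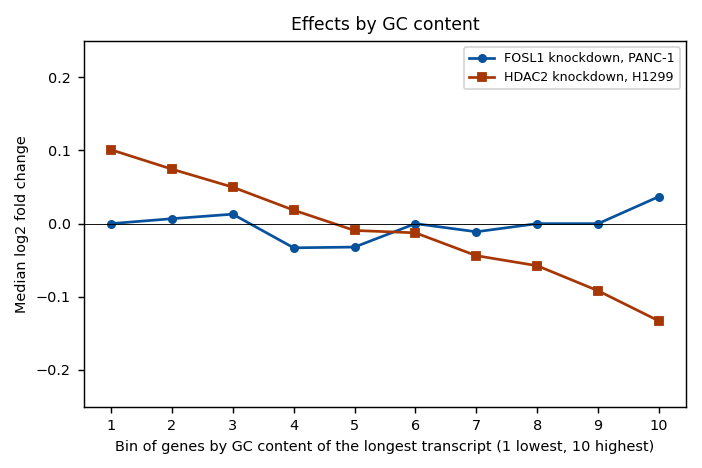
Medians of the log2 fold change over scramble are plotted for 10 equal bins of genes ordered by GC content, with FOSL1 knockdown in PANC-1 as circles and HDAC2 knockdown in H1299 as squares. The H1299 medians fall from 0.10 to -0.13 and the PANC-1 medians stay between -0.03 and 0.04.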

How the data were processed

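Total RNA of 12 cultures was sequenced from NEBNext Ultra libraries. The deposited table holds whole-number counts of 60668 genes, and per the submitters' processing notes the authors used cutadapt, FastQC, STAR 2.7.2b and featureCounts 2.0.1 on GRCh38. The strand setting of the counting and the annotation release are not given in the sources used here, so reads of genes that overlap on opposite strands cannot be told apart. Gene positions and exon overlap came from GENCODE release 44, and symbols are those of the table.

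Groups were taken from the sample titles. Counts were fitted with edgeR 4.0.16 in R 4.3.3 by 1 quasi-likelihood model over all 12 libraries, with filterByExpr by group (18505 genes left) and TMM scaling, with Benjamini-Hochberg adjustment over all genes. Contrasts were each knockdown against the scramble libraries of its line, and the difference of both as an interaction. Calls had an adjusted p below 0.05 with a log2 fold change larger than 0.5 either way. Lists, and the lost calls given for single genes, used that p without the fold. The smallest p of an exact permutation test of 3 libraries against 3 is 0.1, which is why the model was used for each gene. The precision of each value is the spread of 3 libraries at 16065723 to 19173421 counts. Nothing beyond the labels says how cultures were separated, so p-values measure the spread between these samples. The scripts were tested on simulated data.

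Named genes were the targets with HDAC1 and HDAC3, up to 10 genes per class with the largest smaller change (a mean of at least 5 CPM in each line, groups not overlapping), the 5 largest differences each way outside the classes (at the same CPM), the metabolic genes that the study names, and up to 3 same-way, 3 opposite and 2 largest-difference members per list. Some genes that this rule or the lists hold are not reported here. Other list members were named after their values were seen, as were all motifs but AP-1 and CRE. The 30 gene lists, the classes and the contrast were chosen with earlier results of these data known, and the 15 meta-programs come from the study. Alternatives were DESeq2 1.42.0, limma-voom (limma 3.58.1), other scalings, filters and thresholds, separate fits per line, left-out libraries and a replicate block. Offsets for GC content and a fit without scramble replicate 1 were added after seeing the data.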

Additional observations from a re-analysis of the deposited data

Results flagged for a closer look

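Among the genes named above, 73 passed the adjusted p in both knockdowns in opposite ways and had a difference of effects past an adjusted p of 0.05 and beyond 0.5, as tested by the interaction in edgeR. Values here are that difference on the log2 scale, PANC-1 minus H1299, and each is a value with no explanation. Target and cell line cannot be told apart in any of them. Many of the 73 genes were named for moving in opposite ways or for large differences, so the count follows in part from the naming. Of all genes tested, 482 (2.6%) rose in PANC-1 and fell in H1299 at the adjusted p alone, and 413 (2.23%) did the reverse.

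Differences were positive for 37 genes. Of interferon genes, OASL reached 3.52, IFIT3 3.40, IFIT2 3.15, IFIT1 1.64, IFITM3 1.22, IFIH1 1.05, IFI6 1.04 and DDX58 0.89. Of the ATF4 response and its neighbours, NUPR1 reached 2.82, ADM2 2.55, PCK2 1.91, SLC7A11 1.90, SESN2 1.85, TRIB3 1.81, ALDH1L2 1.33, SLC7A5 0.83, SLC7A1 0.76 and SLC1A5 0.67. The other class members were JDP2 at 2.41, ULBP1 at 2.33, CDC42EP1 at 2.18, MAMDC4 at 1.83, GLIS2 at 1.69 and ZBTB42 at 1.65. Of matrix, junction and immune genes, TGFBI stood at 1.99, CLDN1 at 1.40, NLRC5 at 1.35 and ITGB4 at 1.21. The lysosome genes CTSD, CTSZ and MAP1LC3B stood at 1.33, 0.83 and 0.65, the lipid genes LSS and SCD at 1.50 and 1.21, and TBL1X at 0.61. The mitochondrial genes MT-ND4 and MT-ND4L stood at 0.82 and 0.65, and the nuclear copy MTND2P28 at 2.29.

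Differences were negative for 36 genes. Chaperone genes were HSPA1B at -3.46, HSPA1A at -2.79, DNAJB1 at -1.50, HSPA8 at -1.49, HSPH1 at -1.32, HSP90AA1 at -0.71, HSPD1 at -0.58 and HSP90AB1 at -0.54. Antioxidant and iron genes were GCLC at -1.48, GCLM at -1.08, FTL at -0.77, PRDX1 at -0.63, FTH1 at -0.62 and HMOX1 at -0.51. Cell cycle genes were TOP2A at -0.92, CDC6 at -0.92, CCNA2 at -0.90, CDK1 at -0.84 and RRM2 at -0.64. Class members were COL13A1 at -3.62, CEP152 at -1.60, UBASH3B at -1.49, ADM at -1.46, KCNAB2 at -1.43, ATAD5 at -1.40, RNF128 at -1.35 and MACROD1 at -1.15. Matrix and growth factor genes were IGFBP3 at -4.38, EMP1 at -2.65, FN1 at -2.55, STC1 at -2.50, CLDN4 at -1.72 and THBS1 at -1.55. The sterol regulator INSIG1 stood at -1.01, and the AP-1 genes FOS and FOSL1 at -1.07 and -0.82.

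Groups of 3 libraries were too small for a test of single libraries that stand apart.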

How the results depend on the processing

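Every count of called genes stayed within 1.5 times its value under DESeq2, limma-voom, other scalings, no filter, separate fits per line, GC offsets and left-out libraries, except that 142 genes rose in H1299 when at least 10 counts were required in every library, a filter that tests fewer genes. The thresholds moved all 10 counts by construction. At the adjusted p alone they were 4274 and 4292 in PANC-1, 1419 and 1871 in H1299, 3378 and 2872 for the difference, and 426, 613, 482 and 413 for the 4 classes (higher in both, lower in both, higher in PANC-1 and lower in H1299, the reverse). At a log2 fold change over 1 they were 604 and 1360, 63 and 322, 845 and 861, and 6, 65, 23 and 6. Leaving out 1 library gave 28 to 43, 219 to 282, 83 to 123 and 40 to 61 genes in the classes, where a group of 2 shares the spread of the others. In all settings at the main thresholds at least 26 of 40, 196 of 277, 76 of 114 and 34 of 55 genes kept their class, and 0 switched to another.

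Libraries were not paired by replicate number, since same-numbered knockdown and scramble libraries deviated together at correlations of 0.0716, 0.0798 and -0.0212 in PANC-1 and -0.0107, -0.125 and 0.143 in H1299, and not every library was closest to its own number. With the replicate block the counts were 1958 and 2530, 209 and 943, 2196 and 1885, and 37, 273, 111 and 56.

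For 160 named genes, the effects kept for this check gave 9815 values under alternatives, with 198 lost calls and 0 changes of sign. Of these values 0 gained a call, which only an effect that did not pass in the main fit could do. Not every effect of each gene was kept, and the check does not cover the effects left out. The 0 thus does not show that effects given above as not passing stay so under the alternatives. The lost calls fell on 46 values, of which 29 were H1299 effects, and 20 were lost with a left-out library alone. Of the 39 class leaders described 1 (GDA, for its difference) lost a call. The differences of STC2, VLDLR and UBE2L6 were lost under 12, 11 and 10 of 23 alternatives. Values under 5 CPM rest on few counts at this depth, and the cause of these losses was not tested. The motif shares had no alternative window.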
